A study of Mus musculus with 3 samples.

Results

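The immediate early and stress response genes described here were a list of 37 mouse genes, chosen by symbol, and all 37 were found among the 32285 genes of each count matrix. Their levels were read in 3 single-cell RNA libraries of mouse bone marrow, 1 for each sorted population. LSK cells are lineage-negative, Sca-1-positive, Kit-positive marrow cells, the gate used for stem and multipotent cells. LK cells are lineage-negative, Kit-positive cells, mostly committed progenitors. TBM cells are total bone marrow. All 3 were obtained by fluorescence-activated sorting from marrow of leg bones, hips and spines, and lineage depletion used antibodies to T cell (CD5, CD8a), B cell (CD45R), myeloid (CD11b, Ly-6C, Ly-6G) and erythroid (Ter119) antigens. Genotype, treatment, number, sex and age of the animals are not in the labels, and neither is the treatment of Sca-1-positive cells in the LK gate. Each population is 1 library with no replicate, so no comparison below has a test, and gate, handling and library cannot be told apart.

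Immediate early genes are switched on within minutes of a growth factor, cytokine or stress signal by transcription factors that are already in the cell, without new protein synthesis. Many encode transcription factors of the AP-1 and Egr families, and others encode the phosphatases, RNA decay factors and inhibitors that switch the signal off again. Their transcripts are short-lived, and in marrow and other tissues they are also known to be induced while cells are dissociated, stained and sorted.

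The promoters of 6 members are shown because these genes stand for the main roles in the list: AP-1 subunits (Fos, Jun), a feedback phosphatase (Dusp1), the NF-kB inhibitor (Nfkbia), an inducible chaperone (Hspa1a) and the integrated stress response phosphatase subunit (Ppp1r15a). Each line gives the 250 bases before the annotated gene start, 5′ to 3′ on the gene's strand, from RefSeq on build GRCm38.p6, with the searched motifs in capitals. The windows are chr12:85473640-85473889, plus strand, for Fos; chr4:95052223-95052472, minus strand, for Jun; chr17:26508473-26508722, minus strand, for Dusp1. The others are chr12:55492648-55492897, minus strand, for Nfkbia; chr17:34972157-34972406, minus strand, for Hspa1a; chr7:45526269-45526518, minus strand, for Ppp1r15a.
Fos promoter: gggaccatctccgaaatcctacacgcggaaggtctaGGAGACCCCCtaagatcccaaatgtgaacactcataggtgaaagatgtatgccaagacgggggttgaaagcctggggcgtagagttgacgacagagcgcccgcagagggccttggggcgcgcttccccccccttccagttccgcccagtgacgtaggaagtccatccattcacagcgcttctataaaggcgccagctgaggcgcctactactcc
Jun promoter: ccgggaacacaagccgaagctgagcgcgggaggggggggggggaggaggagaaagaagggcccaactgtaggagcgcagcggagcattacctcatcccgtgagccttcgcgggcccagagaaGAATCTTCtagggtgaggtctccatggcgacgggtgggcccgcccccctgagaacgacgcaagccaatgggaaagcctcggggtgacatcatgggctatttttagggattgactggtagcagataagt
Dusp1 promoter: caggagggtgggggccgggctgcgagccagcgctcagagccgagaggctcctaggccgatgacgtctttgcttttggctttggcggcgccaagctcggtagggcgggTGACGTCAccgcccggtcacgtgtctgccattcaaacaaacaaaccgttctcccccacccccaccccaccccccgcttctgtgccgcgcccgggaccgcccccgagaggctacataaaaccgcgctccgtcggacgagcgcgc
Nfkbia promoter: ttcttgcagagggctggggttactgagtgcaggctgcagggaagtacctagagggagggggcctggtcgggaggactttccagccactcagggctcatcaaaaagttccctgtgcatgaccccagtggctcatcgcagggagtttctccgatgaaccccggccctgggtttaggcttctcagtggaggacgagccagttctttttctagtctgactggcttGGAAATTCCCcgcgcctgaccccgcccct
Hspa1a promoter: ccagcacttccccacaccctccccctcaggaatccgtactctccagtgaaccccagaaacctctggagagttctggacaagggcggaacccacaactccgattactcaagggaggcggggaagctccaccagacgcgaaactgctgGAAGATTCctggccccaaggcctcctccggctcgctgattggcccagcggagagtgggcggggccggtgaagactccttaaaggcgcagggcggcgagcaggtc
Ppp1r15a promoter: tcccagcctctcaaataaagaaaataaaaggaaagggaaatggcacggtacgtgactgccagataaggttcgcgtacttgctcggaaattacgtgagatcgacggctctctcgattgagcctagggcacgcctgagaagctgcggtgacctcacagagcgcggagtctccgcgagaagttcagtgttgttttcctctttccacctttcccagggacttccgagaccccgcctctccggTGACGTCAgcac
The capitals mark an NF-kB motif in Fos (starting at -214 from the gene start) and Nfkbia (-29), GAANNTTC, a heat shock element core, in Jun (-128) and Hspa1a (-104), and TGACGTCA, the cyclic AMP response element, in Dusp1 (-143) and Ppp1r15a (-12).

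Both strands of each promoter were searched from 250 bases before to 50 bases after the gene start. RefSeq promoters were matched for 31 members, and Egr1, Egr3, Hspa8, Ier2, Nfkbiz and Trib1 are named only. The NF-kB motif lay in the promoters of 9 of the 31 members (Egr4, Fos, Fosb, Fosl2, Ier3, Maff, Nfkbia, Nr4a1 and Tnfaip3) and in those of 5.14% of the 27025 genes with a RefSeq promoter. TGACGTCA lay in those of 4 members (Btg2, Dusp1, Maff and Ppp1r15a) and in those of 2.03% of these genes. The CArG box, the serum response factor motif, lay in those of 3 members (Dusp5, Egr2 and Zfp36) and in those of 1.81% of these genes. GAANNTTC lay in those of 4 members (Fosl2, Hspa1a, Hspa1b and Jun) and in those of 9.04% of these genes, and its reverse arrangement TTCNNGAA in that of 1 member (Egr2) and in those of 9.60%. TGANTCA, the AP-1 motif, lay in those of 2 members (Csrnp1 and Tnfaip3) and in those of 8.97% of these genes. A match describes these letters in this window and is not a bound site.

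After filters, 1067 LSK, 3461 LK and 4217 TBM cells were kept, with 11836820, 49936180 and 21958139 unique molecular identifiers (UMIs, each 1 counted RNA molecule). A median LSK cell held 9688 UMIs, a median LK cell 13683 and a median TBM cell 3347. The labels give 1070 LSK, 3441 LK and 3984 TBM cells, and the matrices held 1091, 3560 and 4317 barcodes. LSK and LK cells shared 6 barcodes, LK and TBM cells 25, and LSK and TBM cells 6. Doublets were called in 79 of 8824 barcodes, with 3 in LSK and 3 in LK, so doublets of like cells may remain. Cells fell into 23 clusters, built without the members, of which 20 could be named from markers. Levels are given as CPM (the UMIs of a gene over all UMIs of a set of cells, in the standard depth-scaled unit), and brackets give 95% intervals, exact Poisson for levels and conditional binomial for log2 ratios, which cover counting error only.

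The members together made up 1.18% of all UMIs in LSK, 0.910% in LK and 0.501% in TBM. Their summed level was 11835 CPM in LSK cells, 9102 in LK cells and 5006 in TBM cells, so the order was LSK, LK, TBM. The constitutive chaperone Hspa8 alone supplied 2945, 3285 and 1223 CPM of these sums, and without it the sums were 8890 in LSK, 5817 in LK and 3783 in TBM. Taking members with 20 UMIs or more over the pair of libraries (36), 9 had an LSK level at least 2-fold that of LK, and 0 were 2-fold lower. Over all genes these shares were 19.9% and 4.04%, so the share of members that were higher was near the background. The intervals of 27 of 37 members lay above 0 in this comparison and those of 3 below. LK over TBM had 18 members at least 2-fold higher, against 27.3% of all genes, and 4 at least 2-fold lower, against 16.8%. LSK over TBM had 22 members at least 2-fold higher, against 36.9% of all genes, and 1 at least 2-fold lower, against 13.1%. That count of 1 lower was 4 under median-of-ratios size factors, 3 with equal weight for each cell and 2 with calprotectin, globin and receptor segment genes out of the totals. For LSK over LK the members' median log2 ratio was 0.71, beside 0.34 over all genes. LK over TBM gave 1.01 beside 0.37, and LSK over TBM gave 1.40 beside 0.67. With median-of-ratios size factors the medians of all genes moved to -0.05, 0.03 and -0.05, and those of the members to 0.32, 0.67 and 0.68. Under that scaling 4 members instead of 9 had an LSK level at least 2-fold that of LK, and with equal weight for each cell 5 did. Shares of all genes were computed for the main scaling only. The counts under other settings therefore have no background share and cannot be set against those above.

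**Figure D1:**
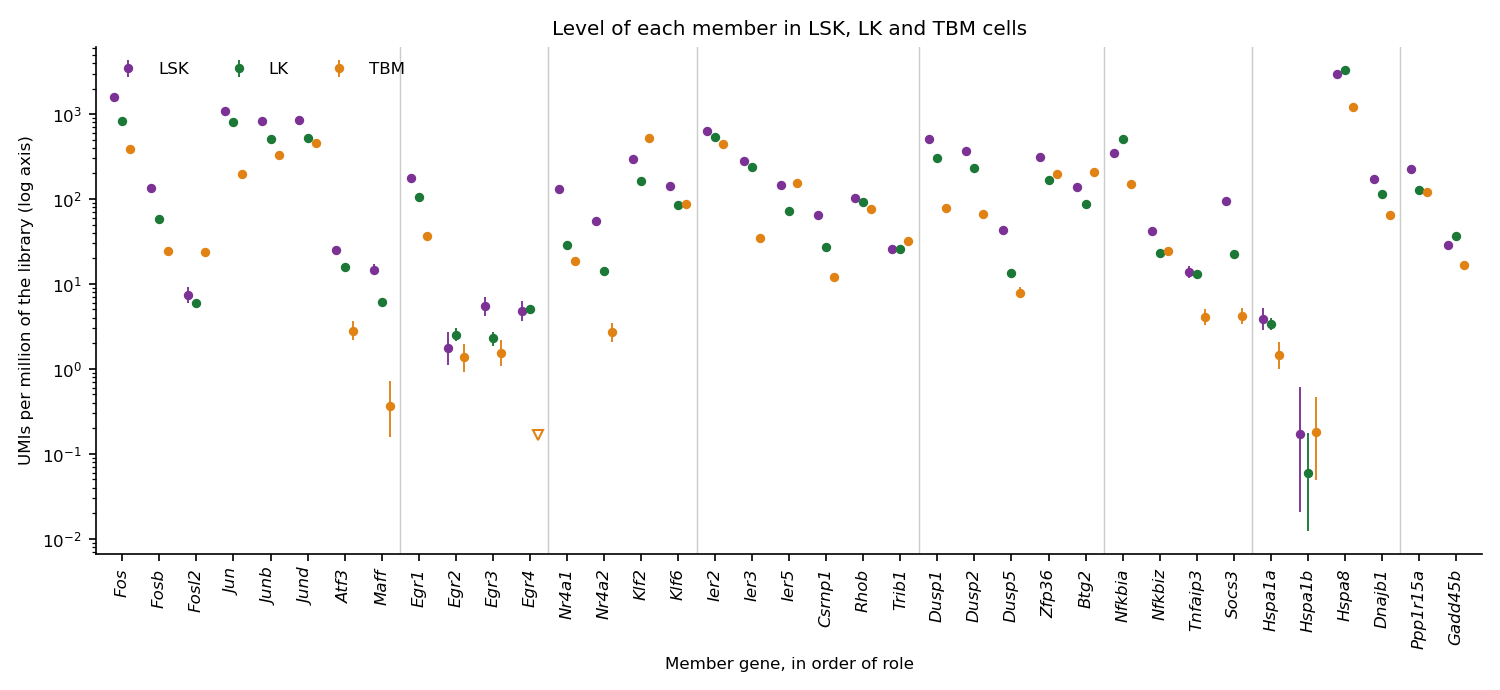
Level of each member in LSK, LK and TBM, in CPM on a log axis (vertical), with exact Poisson 95% intervals and members ordered by role along the horizontal axis. The open triangle marks the upper bound of Egr4 in TBM, where it had 0 UMIs; Fosl2, Klf2 and Btg2 are higher in TBM than in LSK or LK.

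The AP-1 members code for leucine zipper proteins, of which the Fos and Jun proteins pair to bind TGANTCA. Most members of this group had the order LSK, LK, TBM. Fos, the main inducible partner of Jun, had 1585 CPM [1563, 1608] in LSK cells, 838 [830, 846] in LK cells and 384 [376, 392] in TBM cells. Its log2 ratio was 0.92 [0.89, 0.94] for LSK over LK and 1.13 [1.09, 1.16] for LK over TBM. Jun, whose product pairs with Fos or with itself, had 1075 CPM in LSK cells, 814 in LK cells and 195 in TBM cells, with a log2 ratio of 2.07 for LK over TBM. Its difference lay mostly between LK and TBM, since LSK over LK gave 0.40, which turned negative with equal weight for each cell. Fosb, a close relative of Fos, had 134 CPM in LSK cells, 57.9 in LK cells and 24.3 in TBM cells. Junb, a weaker activator than Jun, had 840 CPM in LSK cells, 504 in LK cells and 332 in TBM cells. Jund, the least inducible Jun protein, had 845 CPM in LSK cells, 523 in LK cells and 455 in TBM cells, and its LK over TBM log2 ratio of 0.20 changed sign under 3 other scalings.

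Atf3, a stress-induced repressor of the same superfamily, had 24.8 CPM in LSK cells, 16.0 in LK cells and 2.82 in TBM cells. Maff, a small Maf protein without an activation domain, had 14.8 CPM in LSK cells, 6.07 in LK cells and 0.364 in TBM cells, and its log2 ratio of 4.06 for LK over TBM was the largest of any member with UMIs in both libraries. Fosl2, a slower Fos relative, ran the other way, with 7.43 CPM in LSK cells, 5.99 in LK cells and 23.7 in TBM cells. Its log2 ratio for LK over TBM was -1.99 [-2.20, -1.78].

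The Egr members code for zinc finger activators driven by growth factor signals. Egr1, the most abundant, had 176 CPM in LSK cells, 104 in LK cells and 36.3 in TBM cells. Its relatives were rare: Egr2 had 1.77 CPM in LSK cells, 2.52 in LK cells and 1.37 in TBM cells. Egr3 had 5.49 CPM in LSK cells, 2.28 in LK cells and 1.55 in TBM cells. Egr4 had 57 UMIs in LSK cells, 250 in LK cells and 0 in TBM cells, which is 4.82 and 5.01 CPM in LSK and LK and an upper bound of 0.168 CPM in TBM.

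Nr4a1 and Nr4a2 code for orphan nuclear receptors whose activity is set by how much protein is made. Nr4a1 had 132 CPM in LSK cells, 28.6 in LK cells and 18.5 in TBM cells, and its log2 ratio of 2.20 [2.10, 2.31] for LSK over LK was the largest of the list. Nr4a2 had 55.7 CPM in LSK cells, 14.2 in LK cells and 2.69 in TBM cells. Klf2, a factor of resting lymphocytes, had 297 CPM in LSK cells, 164 in LK cells and 520 in TBM cells, the highest level being in TBM. Klf6, a related injury response factor, had 141 CPM in LSK cells, 85.5 in LK cells and 88.3 in TBM cells.

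Ier2 and Ier5 code for related nuclear proteins, and Ier3 for a regulator of cell survival. Ier2 had 631 CPM in LSK cells, 532 in LK cells and 443 in TBM cells, a narrow range. Ier3 had 280 CPM in LSK cells, 238 in LK cells and 34.3 in TBM cells, with a log2 ratio of 2.79 [2.69, 2.90] for LK over TBM. Ier5 had 145 CPM in LSK cells, 72.5 in LK cells and 155 in TBM cells, so LSK and TBM were both higher than LK. Csrnp1, an AXIN1-induced nuclear protein, had 65.2 CPM in LSK cells, 27.0 in LK cells and 12.1 in TBM cells. Rhob, a small GTPase with a short-lived transcript, had 102 CPM in LSK cells, 92.2 in LK cells and 75.4 in TBM cells. Trib1, a pseudokinase that directs C/EBPα to degradation, had 25.6 CPM in LSK cells, 26.1 in LK cells and 32.2 in TBM cells. Ier2 and Rhob had LSK over LK and LK over TBM ratios that changed sign under median-of-ratios size factors.

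Feedback members limit the signal. Dusp1, a nuclear phosphatase that inactivates p38 and JNK, had 516 CPM in LSK cells, 304 in LK cells and 78.1 in TBM cells. Its log2 ratio was 0.76 [0.72, 0.81] for LSK over LK and 1.96 [1.89, 2.03] for LK over TBM. Dusp2, another nuclear MAP kinase phosphatase, had 364 CPM in LSK cells, 232 in LK cells and 67.1 in TBM cells. Dusp5, which acts on ERK, had 43.2 CPM in LSK cells, 13.3 in LK cells and 7.92 in TBM cells. Zfp36, which binds AU-rich transcripts and speeds their decay, had 312 CPM in LSK cells, 168 in LK cells and 196 in TBM cells. Btg2, an antiproliferative partner of the CCR4-NOT deadenylase, had 140 CPM in LSK cells, 86.5 in LK cells and 209 in TBM cells. The phosphatases thus shared the order LSK, LK, TBM, whereas Btg2 was highest in TBM and Zfp36 lowest in LK.

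Members grouped under NF-kB and cytokine feedback did not share 1 order. Nfkbia, the inhibitor that keeps NF-kB in the cytoplasm, had 348 CPM in LSK cells, 514 in LK cells and 151 in TBM cells. It was the most clearly lower member in LSK, with a log2 ratio of -0.56 [-0.61, -0.51] for LSK over LK. Nfkbiz, a nuclear relative, had 42.3 CPM in LSK cells, 23.2 in LK cells and 24.4 in TBM cells. Tnfaip3, the ubiquitin editing protein A20, had 13.8 CPM in LSK cells, 13.1 in LK cells and 4.10 in TBM cells. Socs3, which blocks cytokine receptor signalling, had 94.3 CPM in LSK cells, 22.5 in LK cells and 4.24 in TBM cells, with a log2 ratio of 2.06 [1.94, 2.18] for LSK over LK.

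Of the heat shock members, Hspa1a and Hspa1b had few UMIs in all 3 libraries. Hspa1a, the inducible Hsp70, had 46 UMIs in LSK cells, 169 in LK cells and 32 in TBM cells, which is 3.89, 3.38 and 1.46 CPM. Its near-identical copy Hspa1b had 2 UMIs in LSK cells, 3 in LK cells and 4 in TBM cells. Reads of the 2 copies can be split or dropped in counting, so both values are uncertain. Hspa8, the constitutive Hsc70, had 2945 CPM in LSK cells, 3285 in LK cells and 1223 in TBM cells, and its log2 ratio was -0.16 [-0.17, -0.14] for LSK over LK. Dnajb1, the Hsp40 partner of Hsp70, had 170 CPM in LSK cells, 114 in LK cells and 65.4 in TBM cells. Ppp1r15a, which recruits the phosphatase that reverses eIF2α phosphorylation, had 223 CPM in LSK cells, 127 in LK cells and 120 in TBM cells. Gadd45b, a growth arrest and DNA damage gene, had 28.5 CPM in LSK cells, 37.1 in LK cells and 16.6 in TBM cells.

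For the spread between cells, each cell was thinned to 2000 UMIs, which left out 0 LSK, 9 LK and 1288 TBM cells. The B cell-like cluster 4 and the pro-B and pre-B cell-like cluster 9 had medians of 1858 and 1819 UMIs, so most of their cells were left out. These 2 clusters had the highest member sums of TBM, so the TBM values of this paragraph describe the deeper TBM cells only. The median cell then held 23 member UMIs in the LSK library, 18 in LK and 10 in TBM. The middle part of the cells, from the 10th to the 90th percentile, ran from 14 to 39 in LSK, 9 to 41 in LK and 3 to 21 in TBM, so the libraries overlapped widely. The variance divided by the mean of the sum was 4.88 in LSK, 9.62 in LK and 5.07 in TBM, where independent draws from 1 level would give about 1. Differences between clusters made up 8.86% of the variance of the sum in LSK, 39.2% in LK and 46.0% in TBM. Fos itself had a variance over mean of 3.71 in LSK, 4.36 in LK and 2.37 in TBM. Hspa8 had 1.52 in LSK, 1.67 in LK and 3.12 in TBM, so in LSK and LK it was more even over cells than Fos. Among the 711 LSK cells of cluster 0, 69 of 78 pairs of the 13 members with enough UMIs correlated positively, but weakly, with a median Pearson r of 0.08 and a highest of 0.33. The 12 pairs with Hspa8 there had a median r of -0.03. In LK cluster 2, 19 of 21 pairs were positive, with a median r of 0.09 and a highest of 0.12. In TBM cluster 6, 3 of 6 pairs were positive, with a median r of 0.008. Each of these values comes from cells of 1 library at 1 thinned depth and describes that library.

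**Figure D2:**
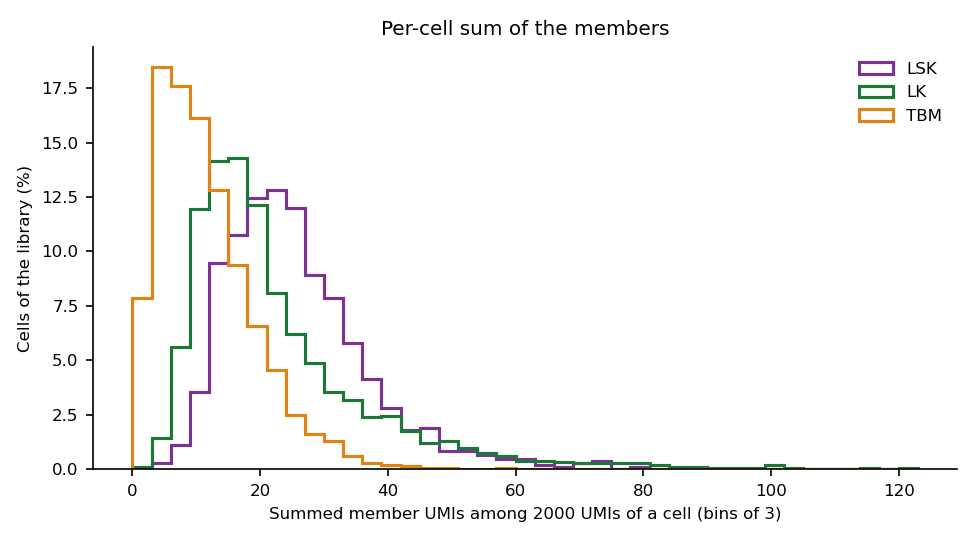
Distribution over cells of the summed member UMIs among 2000 UMIs of each cell, in bins of 3, as a percent of the cells of LSK, LK and TBM. Medians lie at 23, 18 and 10, the 3 curves overlap, and LK has the longest upper tail, reaching 122. Cells under 2000 UMIs are left out, most of them TBM cells.

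Cell depth moved with the sum inside some clusters, and its part in the spread was not tested. In LSK cluster 0 the sum was 15631 CPM in the tercile of cells with the fewest UMIs and 11486 in the tercile with the most. In LK cluster 7 it was 25085 CPM in the lowest tercile and 10724 in the highest, and in TBM cluster 1 it was 11873 and 5637. In LK cluster 2 the terciles were even, at 7436, 7097 and 7318 CPM, and in TBM cluster 5 the sum was lowest in the shallowest tercile, at 2014 CPM against 3026.

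By lineage, the members did not follow 1 common order. In LK, the mast cell and basophil-like cluster 13 had the highest sum, 18559 CPM, followed by the erythroid progenitor-like cluster 7 with 15320. The granulocyte-monocyte progenitor-like cluster 5 had 6313 CPM, and the monocyte lineage-like cluster 2 had 7275. A small erythroid progenitor-like cluster, 22, with 32 cells, had 6352 CPM, of which Hspa8 supplied 5091, and without Hspa8 it was the lowest at 1261. The name of cluster 13 holds less well for its LK cells. In them the 7 mast cell and basophil markers summed to 2526 CPM and the 9 granulocyte-monocyte progenitor markers to 7154. Jun had 2446 CPM in cluster 13, 2009 in cluster 7 and 87.4 in cluster 22. Egr1 had 481 CPM in cluster 13, 375 in cluster 7 and 20.3 in cluster 5. Other members peaked elsewhere: in LK, Nr4a1 was 119, Klf2 315 and Socs3 131 CPM in the stem and multipotent progenitor-like cluster 0, against 5.86, 82.1 and 9.71 in cluster 5. In LSK, where cluster 0 held most cells, Dusp2 had 674 CPM, Nfkbia 581 and Zfp36 448 in the lymphoid-primed progenitor-like cluster 20. In cluster 0 of LSK they had 420, 331 and 353.

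In TBM the sum was 11411 CPM in the pro-B and pre-B cell-like cluster 9 and 10058 in the B cell-like cluster 4. It was 7105 in the neutrophil-like cluster 1 and 1345 in the erythroblast-like cluster 16. These cluster levels are over all UMIs, globin and calprotectin genes included, and were not computed without those genes. Klf2 had 2621 CPM in cluster 4, against 560 in cluster 1 and 21.8 in the erythroblast-like cluster 11. Jund had 2928 CPM in cluster 9 and Btg2 712, the highest of the clusters for both. Neutrophil-like cluster 1 had the highest Ier2, at 1353 CPM, Junb, at 1112, and Fosl2, at 88.6. Fos was highest in the monocyte lineage-like cluster 10, at 945 CPM, beside 943 in the mast cell and basophil-like cluster 13 and 17.4 in cluster 11. Ier3 had 535 CPM in cluster 13 and 137 in cluster 1, and no more than 55.7 in the other TBM clusters of 20 cells or more. Ppp1r15a had 715 CPM in cluster 16 and 506 in the erythroblast-like cluster 11 while the median cluster had 34.4. Dnajb1 was also highest in cluster 11, at 152 CPM beside a median cluster of 62.6, but lowest in cluster 16, at 5.91. The erythroblast-like clusters, the lowest for Fos, Jun and Klf2, were thus the highest for Ppp1r15a.

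**Figure D3:**
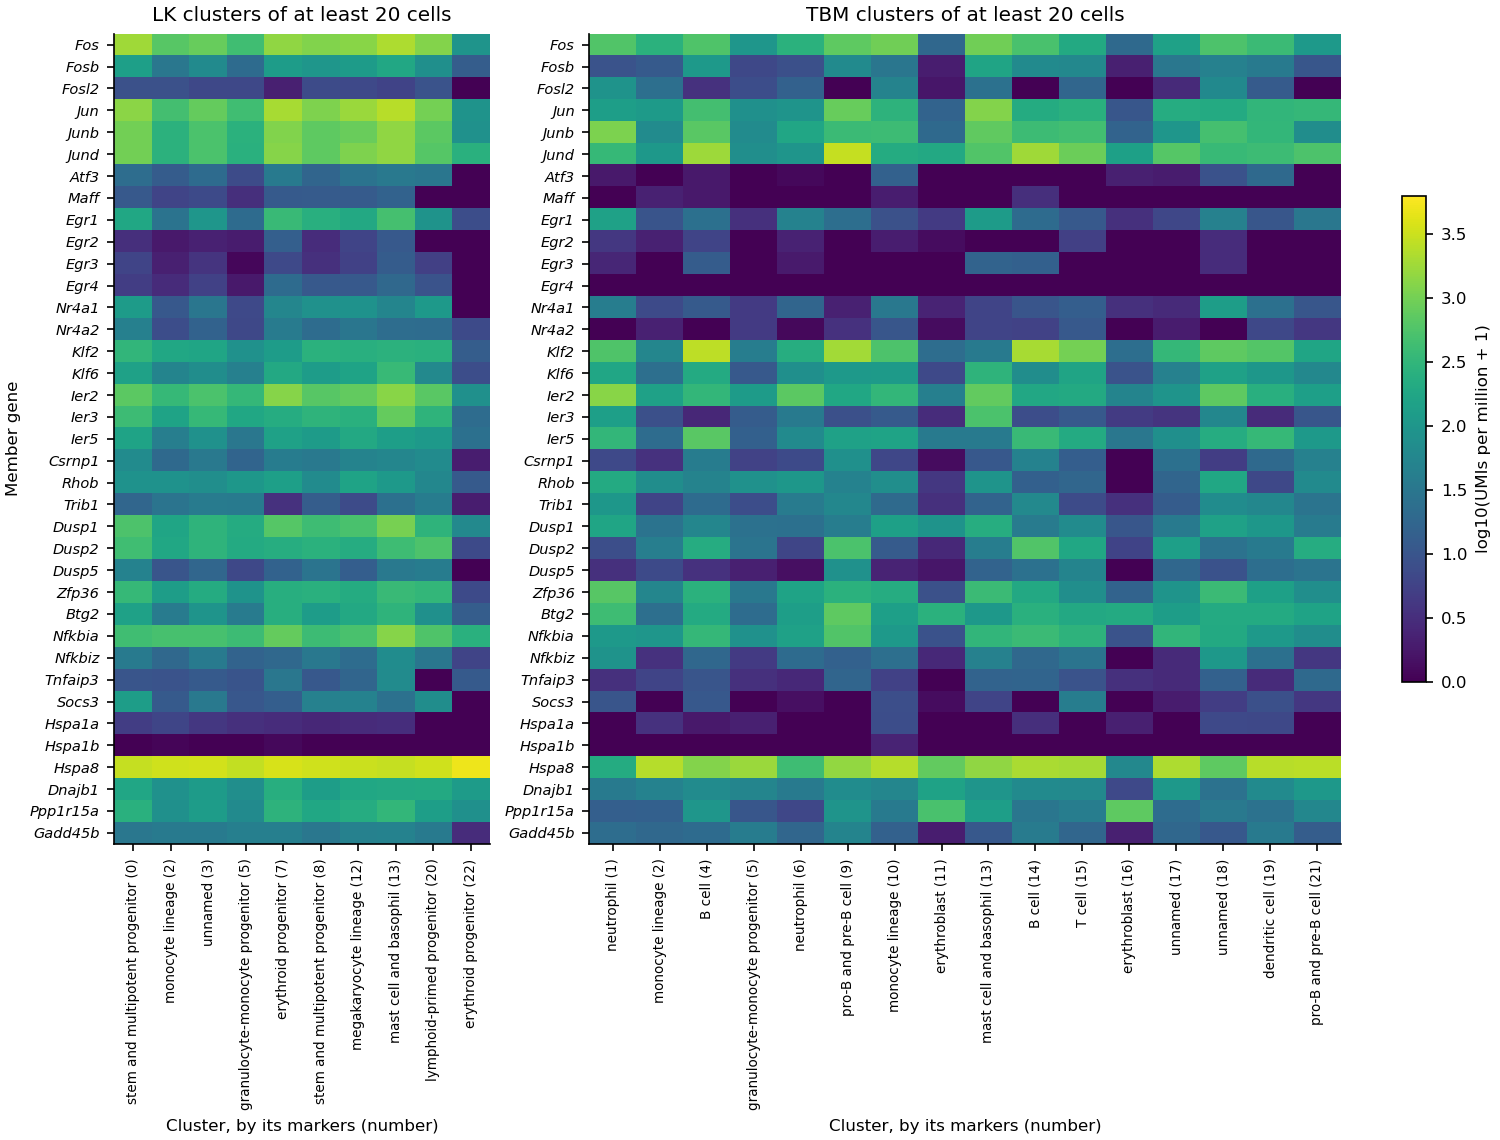
Level of each member (rows, by role) in each cluster of at least 20 cells of LK and of TBM (columns), coloured by log10(CPM + 1). Ppp1r15a is bright in the erythroblast-like clusters 16 and 11 of TBM, which are dark for most other members, and Klf2 is bright in the B cell-like clusters.

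Cells of the same cluster were then compared between libraries. The 711 LSK cells and 257 LK cells of cluster 0 had summed levels of 12953 and 13006 CPM, a log2 ratio of -0.01 [-0.03, 0.02]. Their median depths were 8386 UMIs in LSK and 6674 in LK, and the sum fell with depth in both. The lowest LSK tercile (median 6360 UMIs) had 15631 CPM, and the middle LK tercile (6680) had 13175. The middle LSK tercile (8386) had 13074 CPM, and the highest LK tercile (9127) had 11423. The part of depth in this ratio was not tested. Of 35 members measured in cluster 0, 0 were at least 2-fold higher in LSK and 0 lower, beside 5.84% and 0.66% of all genes. Of the 37 intervals, 22 held 0, 10 lay above 0 and 4 below, and log2 ratios ran from -0.39 to 0.91. In cluster 8, also stem and multipotent progenitor-like, the sums were 10440 CPM in LSK and 11132 in LK. There 1 of 34 members, Egr3, was at least 2-fold higher, beside 4.43% of all genes, and 0 lower, beside 0.934%. The other 3 clusters with at least 20 cells in both libraries held fewer LSK or LK cells. In the lymphoid-primed progenitor-like cluster 20, with 51 LSK and 23 LK cells, the log2 ratio of the sum was 0.14 [0.07, 0.20]. There 2 of 29 members were at least 2-fold higher in LSK, beside 6.99% of all genes, and 0 lower, beside 2.44%. In the unnamed cluster 3, with 22 LSK and 632 LK cells, the log2 ratio was -0.09 [-0.14, -0.05]. There 0 of 35 members were at least 2-fold higher, beside 6.02%, and 4 lower, beside 4.91%. In the megakaryocyte lineage-like cluster 12, with 22 LSK and 248 LK cells, it was -0.16 [-0.22, -0.10]. There 3 of 31 members were at least 2-fold higher, beside 5.71%, and 1 lower, beside 6.57%. With depth not matched and Hspa8 included, the log2 ratio of the sum in these 5 clusters thus lay within 0.16 of 0, beside 0.38 over the whole libraries. Without Hspa8 the sums in LSK and LK were 10272 and 10113 CPM in cluster 0 and 5253 and 6077 in cluster 3. In cluster 12 they were 8469 and 9560 CPM, beside 8890 and 5817 over the whole libraries.

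LK and TBM cells were compared in the same way. In cluster 2 the sum was 7275 CPM in 862 LK cells and 3644 in 41 TBM cells, a log2 ratio of 1.0 [0.94, 1.05]. When monocyte lineage-like cells were taken by marker score instead, 128 in LK and 442 in TBM, it was 0.42. That is a different set of cells, since most of its TBM cells lay outside cluster 2. Another monocyte lineage-like cluster, 10, held 393 TBM cells and 0 LK cells. In cluster 2 itself, 23 of 35 members were at least 2-fold higher in LK, beside 7.79% of all genes, and 1, Fosl2, lower, beside 6.81%. In cluster 5 the sum was 6313 CPM in 548 LK cells and 2633 in 46 TBM cells, a log2 ratio of 1.26 [1.20, 1.32]. There 23 of 33 were at least 2-fold higher, beside 11.2%, and 0 lower, beside 5.89%. In cluster 13 the sum was 18559 CPM in 157 LK cells and 8523 in 37 TBM cells, and 19 of 33 members were at least 2-fold higher, beside 20.7%, and 0 lower, beside 9.01%. The LK and TBM cells of cluster 13 differed in its own markers: the 7 mast cell and basophil markers summed to 2526 CPM in LK and 65924 in TBM, and Prss34, a basophil protease, had 27.3 CPM in LK and 33981 in TBM. Kit had 53.2 CPM in LK and 5.04 in TBM. With fewer clusters (resolution 0.5) the mast cell and basophil-like cluster held 1 LK and 32 TBM cells, and the part of these differences in the result was not tested. Klf2, lower in LK over the whole libraries, was 182 CPM in LK and 55.3 in TBM in cluster 2. Hspa8 in cluster 2 had 3324 CPM in LK and 2369 in TBM, a log2 ratio of 0.49 [0.42, 0.55]. In all 8 clusters with at least 5 cells in both libraries the sum was higher in LK, by a log2 ratio of 0.66 to 2.0. Depth was not matched in these clusters, and its part was not tested. Median depths in LK and TBM were 6900 and 14087 UMIs in cluster 7, 7631 and 12319 in cluster 12, and 7897 and 3920 in cluster 13. In cluster 7, with 12 TBM cells at 3831 CPM, the LK tercile with the most UMIs (median 12613) had 10724 CPM.

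The TBM cells of these clusters carried more neutrophil and erythroblast marker transcripts, and the part of these in the result was not tested. In cluster 5, Fcnb had 9.62 CPM in LK and 837 in TBM, and Elane had 15051 and 21097. Irf8 had 63.6 CPM in LK and 5.78 in TBM there. Whether the LK and TBM cells of a cluster differed in stage was not tested. The 10 neutrophil markers summed to 186 CPM in LK and 30987 in TBM in cluster 5, and to 25.6 and 4361 in cluster 2. In cluster 13 they summed to 14.7 CPM in LK and 5386 in TBM. The 8 erythroblast markers summed to 4.67 CPM in LK and 2048 in TBM in cluster 5, and to 6.79 and 1881 in cluster 2. In cluster 13 they summed to 16.1 CPM in LK and 2537 in TBM. With calprotectin, globin and receptor segment genes out of the totals, the log2 ratio of the member sum was 0.99 in cluster 2 and 1.22 in cluster 5.

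**Figure D4:**
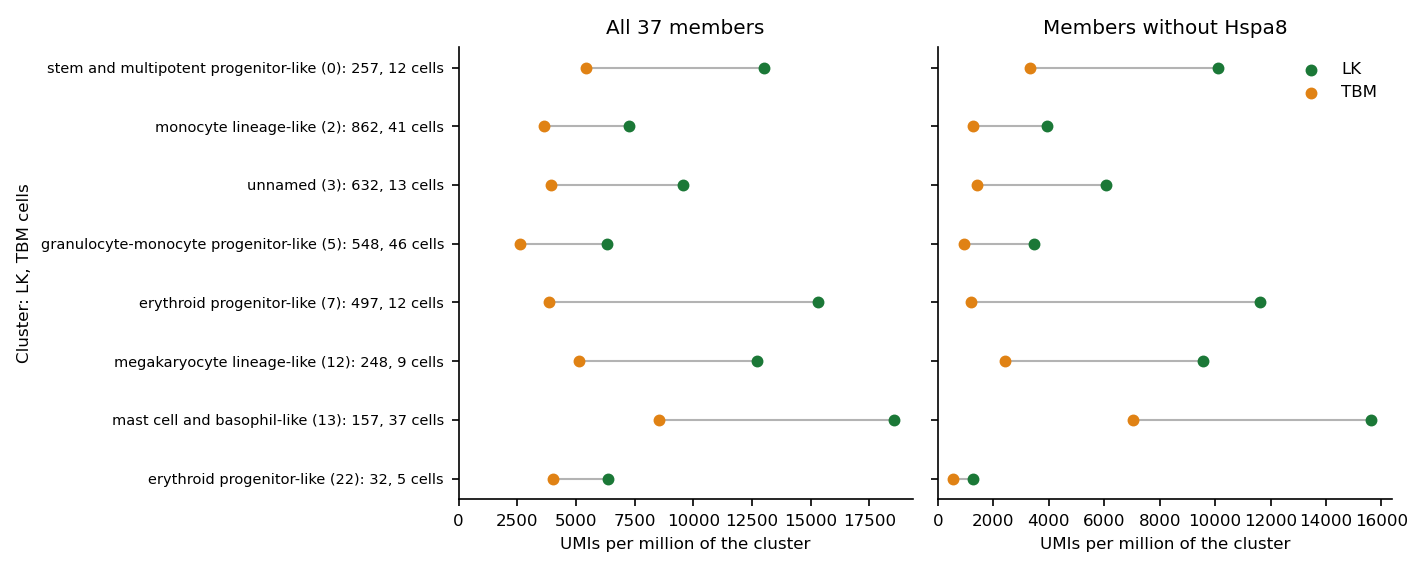
Summed member level in LK and TBM cells of each cluster with at least 5 cells in both libraries, in CPM on the horizontal axis, for all members (left) and without Hspa8 (right), with the cells of LK and TBM beside each cluster. LK lies to the right of TBM in all 8 clusters, by the widest margin in cluster 7, with 15320 against 3831. Median depth in cluster 7 was 6900 UMIs in LK and 14087 in its 12 TBM cells.

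As the check on handling, cells with at least 1 Kit UMI were compared. Kit codes for the stem cell factor receptor by which LK cells are sorted. It was found in 37.6% of LK cells (1303) and 2.87% of TBM cells (121), whose median depths were 14780 UMIs in LK and 13430 in TBM, and in 57.0% of LSK cells. In TBM the share was 0 of 608 cells in the B cell-like cluster 4 (median 1858 UMIs), with an upper bound of 0.605%, and 1.16% in the neutrophil-like cluster 1 (median 2038 UMIs). Clusters 6 and 1, both neutrophil-like, gave 33 and 11 of the 121 TBM cells. The 10 neutrophil markers summed to 62.7 CPM in the LK cells and 131970 in the TBM cells, and the part of this in the result was not tested.

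The summed level was 8824 CPM in Kit-positive LK cells and 3597 in Kit-positive TBM cells, a log2 ratio of 1.29 [1.26, 1.33]. Of 36 members measured, 25 were at least 2-fold higher in LK, beside 9.99% of all genes, and 0 lower, beside 6.47%. The intervals of 30 members lay above 0 and that of 1, Fosl2, below, and with counts of 0 to 2 raised to 3 the count was 23. The members' median log2 ratio was 1.60, beside 0.24 over all genes. Fos had 775 CPM in Kit-positive LK cells and 193 in Kit-positive TBM cells, a log2 ratio of 2.01 [1.85, 2.17]. Jun had 780 and 138 CPM, a log2 ratio of 2.50 [2.32, 2.69]. Ier3 had 232 and 25.4 CPM, a log2 ratio of 3.19 [2.77, 3.65]. Dusp1 had 284 CPM in LK and 34.5 in TBM, and Nfkbia had 495 in LK and 102 in TBM, so inhibitors of the signal stood with its activators. Ppp1r15a had 123 CPM in LK and 20.9 in TBM, a log2 ratio of 2.55 [2.08, 3.06], while over the whole libraries it was 127 and 120. Egr4 had 90 UMIs in LK and 0 in TBM, at least 2.66-fold higher in LK against a floor of 3 UMIs. Hspa8 had 3264 CPM in LK and 1813 in TBM, a log2 ratio of 0.85 [0.80, 0.90]. Klf2 had 153 and 122 CPM, Ier2 508 and 315, and Btg2 83.0 and 71.8. The intervals of Btg2, Egr2, Egr3 and Hspa1a held 0, and Egr4 and Hspa1b had no ratio, since neither had a UMI in the TBM cells. Without cells of the neutrophil-like clusters, 77 TBM cells remained and the log2 ratio of the sum was 1.24. In clusters 2 and 5 alone, with 524 LK and 30 TBM cells, it was 1.13.

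**Figure D5:**
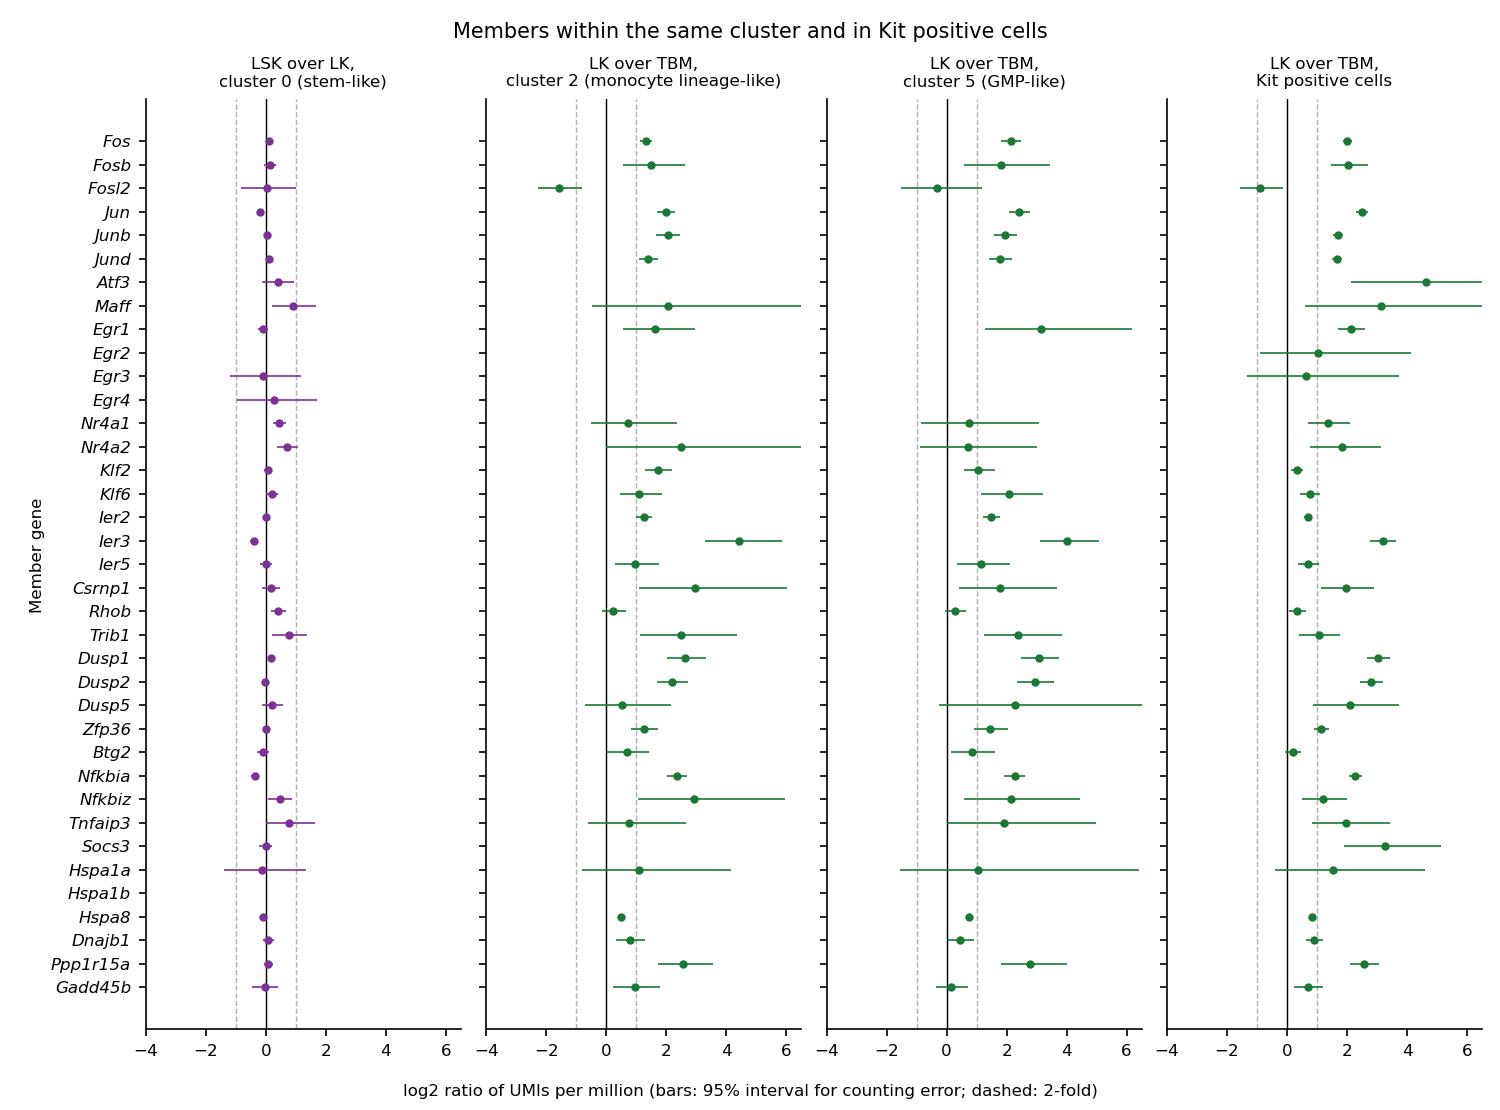
Log2 ratio of each member between libraries within clusters and among Kit-positive cells, with 95% intervals drawn no further than 6.5. Members with 0 UMIs in a set or under 20 UMIs in all have no point. LSK over LK points in cluster 0 (left) lie between -0.39 and 0.91, whereas most LK over TBM points lie to the right of 0.

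Lists of other genes of these pathways are given beside the shares of all genes in the same comparison. Over the whole LK and TBM libraries these shares were 27.3% higher and 16.8% lower, and in Kit-positive cells 9.99% and 6.47%. Of 14 other heat shock genes, 11 were at least 2-fold higher in LK than in TBM and 0 lower, led by the mitochondrial chaperonin gene Hspd1 with 575 CPM in LK and 108 in TBM. In Kit-positive cells 2 of these 14 were at least 2-fold higher, a share near that of all genes. Of 30 other immediate early genes, 8 were at least 2-fold higher in LK than in TBM, also near the share of all genes, and 7 lower. In Kit-positive cells 5 of 26 were at least 2-fold higher and 4 lower. Cebpb, a myeloid transcription factor, had 26.4 CPM in Kit-positive LK cells and 132 in Kit-positive TBM cells. Cxcl2, a neutrophil chemokine and NF-kB target, had 146 and 3.39 CPM there. Of 13 NF-kB targets measured in these cells, 5 were at least 2-fold higher in LK and 0 lower. Over the whole libraries 2 of 14 NF-kB targets were higher in LK and 5 lower, with a median log2 ratio of -0.65. In cluster 13, 4 of 11 were higher, beside 20.7% of all genes there, and 3 lower, beside 9.01%. The LK and TBM cells of that cluster differed in its own markers, as given above. Between LSK and LK, where 19.9% of all genes were higher and 4.04% lower, 13 of 30 other immediate early genes were 2-fold or more higher in LSK and 1 lower, with Cebpb at 119 CPM in LSK and 28.4 in LK. Integrated stress response genes, the pathway of Ppp1r15a, had 1 of 10 genes 2-fold or more higher in LSK over LK and 0 lower.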

How the data were processed

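The 3 single-cell libraries (10x Genomics 3′ chemistry, per the labels' protocols) were analysed, 1 each for LSK, LK and TBM. The deposited matrices hold raw UMI counts per gene and barcode, made by the authors with Cell Ranger 4.0.0 on mm10, per the submitters' processing notes. Barcodes with under 200 genes or over 10% mitochondrial UMIs were removed, then doublets called by scrublet were removed. Cells were clustered in scanpy 1.11.5 with leidenalg 0.10.2 on 2000 variable genes without members, gate, cell cycle, interferon, ribosomal or mitochondrial genes (30 principal components, 15 neighbours, resolution 1). A cluster was named when at least 3 markers of the class were each detected in 10% of its cells or more and its 10 leading genes by fold held at least 1 of them and more than of any other class, a rule revised after first names were seen. Levels are summed counts on the CPM scale, with exact Poisson intervals, and a 2-fold ratio with at least 20 UMIs over both sets was counted. A count of 0 was raised to 3 UMIs, a floor set after counts were seen. Intervals came from scipy 1.17.1 with Python 3.11.15. No correction for free RNA was made. Scripts were tested on simulated data. Per-cell sums used cells thinned to 2000 UMIs. Every member with at least 20 UMIs over the libraries is given. Other pathway genes could be named with at least 200 UMIs and 2-fold, at most 3 in each direction. Only some of the genes that met this rule are named, and others in both directions are left out. The members and lists were chosen with earlier results of these data known.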

Additional observations from a re-analysis of the deposited data

Results flagged for a closer look

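Atf3 had ratios of opposite sign between LSK and LK in 2 clusters. In the megakaryocyte lineage-like cluster 12 it was 66.9 CPM in LSK cells and 26.6 in LK cells, a log2 ratio of 1.33, and in the unnamed cluster 3 it was 4.33 and 20.6, a log2 ratio of -2.25. The LSK values rest on 17 and 2 UMIs, and the difference between the clusters was not tested.

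Barcodes left out for over 10% mitochondrial UMIs also held member transcripts, at a higher level than the cells kept. The 21 such LSK barcodes had 22498 CPM, against 11835 in cells kept. The 96 LK barcodes had 11472, against 9102, and the 23 TBM barcodes had 6236, against 5006.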

How the results depend on the processing

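No paired analysis was possible because each population is 1 library. No count or sum turned round under the alternatives run, apart from the near-0 ratio of cluster 0. Single members did: under median-of-ratios size factors 6 of 36 changed sign for LSK over LK, 4 of 36 for LK over TBM and 5 of 36 for LSK over TBM. The cause of the following shifts was not tested, and shares of all genes were not computed under these settings. Members 2-fold or more higher for LSK over LK numbered 5 with equal weight for each cell, 4 with size factors and 22 at 1.5-fold, and 1 was lower with equal weight. For LSK over TBM, 3 were lower with equal weight, 4 with size factors, 2 with calprotectin, globin and receptor segment genes out of the totals and 2 at 1.5-fold. The median cell held 115 member UMIs per 10000 in LSK, 90 in LK and 50 in TBM. Without Hspa8, the member with the most UMIs, it held 90, 55 and 35, for the 4 heat shock members alone 30, 30 and 5, and for the Fos, Jun and Egr members alone 45, 25 and 10. Without thinning it held 88.6 in LK and 62.2 in TBM, at 4000 UMIs 87.5 in LK and 37.5 in TBM, and at 1000 UMIs 60 in TBM. For LSK over LK in cluster 0, the log2 ratio of the sum was -0.071 at resolution 2 (-0.071, -0.10 and -0.039 in 3 same-named clusters there), -0.029 by marker score and 0.022 without Hspa8. For LK over TBM it was 1.63 without Hspa8 in cluster 2. By marker score for the monocyte lineage it was 0.42, in a set with mostly other TBM cells. In cluster 5 it was 1.32 with equal weight, 1.16 in cluster 15 of the same name at resolution 2 and 1.89 without Hspa8. In cluster 13 it was 1.84 in the resolution 0.5 cluster that held most of its cells, which is unnamed and led by Car1 (791 LK, 20 TBM cells), 0.91 by marker score and 0.82 with equal weight, where 1 member was lower; in cluster 2, 2 were lower with counts of 0 to 2 raised to 3. For Kit-positive cells it was 1.45 with at least 2 Kit UMIs, 1.47 with Kit read after thinning, 1.44 with equal weight (1 member lower), 1.24 outside neutrophil-like clusters, 1.13 in clusters 2 and 5, and 1.36 weighted by class. The last 3, the same-named clusters, the floor alternative and the totals and Hspa8 alternatives within clusters were chosen after seeing the data. The resolution 2 clusters that held most cells of clusters 2, 5 and 13 had under 20 TBM cells, and no class held 20 Kit-positive cells in both libraries, so these were not run. Counting error limits rare members: Egr2, Egr3, Egr4 and Hspa1a had 2 UMIs or fewer in Kit-positive TBM cells.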
